A study of Mus musculus with 6 samples.

Results

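Rab proteins are small GTPases that direct membrane vesicles between the compartments of a cell. The genes described here are those whose symbol is Rab followed by a number and at most 1 letter from a to d, which gave 57 of the 21740 genes measured. Genes that only carry Rab in their name, such as Rab11fip1, Rab3ip or Rabl3, encode partners or distant relatives and were not counted as members. The RNA came from the uterine luminal epithelium of wild type mice of mixed C57BL6/129svj background, the sheet of cells facing the uterine cavity, to which the embryo attaches. It was collected on gestation day 4.5 (D4.5), when implantation sites were present, and on gestation day 3.5 (D3.5), when blastocysts were still free in the uterus. Both groups were young virgin females of 2 to 4 months that had mated naturally with wild type males, and days were counted from the vaginal plug. Sheets of epithelium were freed with dispase and gentle scraping, and labelled cRNA from 1 µg of total RNA was hybridised to single-colour Affymetrix arrays, 3 for D4.5 and 3 for D3.5. Whether the 3 arrays of a day stand for different mice is not said in the labels. The p-values therefore describe only how these samples vary, possibly for technical reasons, and the day of gestation and the handling of its arrays cannot be told apart.

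A Rab protein switches between an active form bound to GTP and an inactive form bound to GDP. Exchange factors activate it on its membrane, GTPase-activating proteins turn it off, a prenyl group added by a transferase holds it in the membrane, and its active form recruits effectors such as tethers and motor proteins before SNARE proteins fuse the vesicle. In a polarised epithelium such as that of the uterine lumen, Rab proteins of recycling endosomes carry membrane and secreted cargo to the apical surface, which is remodelled in early pregnancy.

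Levels below are log2(intensity + 16) after quantile normalization over all rows, as mean ± SD with n = 3 arrays a day, and a change is the D4.5 mean minus the D3.5 mean ± SE. "Rose" and "fell" are used only of genes with an adjusted p under 0.05, by limma with Benjamini-Hochberg adjustment over all 21740 genes. The median deposited intensity was 78.9 to 80.2 on the D4.5 arrays and 108.6 to 118.4 on the D3.5 arrays, which quantile normalization makes equal. Arrays of a day correlated with r = 0.986 to 0.993 on D4.5 and 0.980 to 0.992 on D3.5 across genes, which are not independent replicates. D3.5 replicate 1 stood apart most, with an array weight of 0.247 against 0.708 to 2.92 for the other arrays, and for the Rab genes it lay a median of 0.17 from the other arrays of its day, against 0.06 to 0.11 for the other 5 arrays. The epithelial markers Epcam, Cdh1, Krt7, Krt8, Krt18, Krt19 and Cldn7 were above a background level set by receptor genes, on D4.5 and on D3.5. This receptor level is the 95th percentile of 1346 genes of smell, pheromone and taste receptors, for which no role in this epithelium is known, and stood at 6.37 on D4.5 and 6.56 on D3.5. Of the markers of other cells, none of 8 stromal and none of 5 endothelial genes was called. On D4.5, 7 of the stromal and all 5 endothelial genes were above the receptor level. Their means varied between the D4.5 arrays, from 7.42 to 8.75 and from 6.49 to 7.90, so a difference between the days could be missed. Of 4 gland markers 2 rose (Spink3, Prss29) and 2 fell (Foxa2, Cxcl15), and 3 of 5 trophoblast markers fell. Of 6 leukocyte markers Csf1r rose and Cd3e fell, and of 5 smooth muscle markers Tagln rose and Actg2 fell. The part of such cells in the Rab changes was not tested, and in bulk samples fewer cells of a type and less RNA per cell cannot be told apart.

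Of the 57 Rab genes, 15 rose and 18 fell on D4.5 relative to D3.5, and 24 did not pass the test. Over all genes, 18.0% were called higher and 26.4% lower, 44.4% in either direction. The median change of the Rab genes was -0.01, against -0.07 for all genes. At least 2-fold rises were those of Rab2b, Rab11a and Rab8a (3 genes, 3.04% of all genes), and Rab40b fell by at least 2-fold (1 gene, 2.46% of all genes). The D4.5 arrays all lay above the D3.5 arrays for 16 Rab genes (23.4% of all genes), all below for 18 (35.2%), and overlapped for 23. Among these, Rab3a was apart without passing the test.

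The direction of small changes depended on the scaling between the days. With each array centred on its median instead, 20 Rab genes were called higher and 11 lower (28.0% and 19.6% of all genes), and on the deposited scale 13 were higher and 29 lower (11.4% and 61.8% of all genes). The median change of all genes was then 0.02 with median centring and -0.40 on the deposited scale, and that of the Rab genes 0.20 and -0.23. All further values are after quantile normalization. Where a called Rab gene lost its call or changed sign under another scaling, the value is given beside it. The same holds for partner genes with the 3 smallest p-values per direction of their list. Other partner genes, named as relatives of these or looked at later, were not followed across scalings. For them, a missing value does not mean that the call held. The changes of the receptor genes give another measure of this limit: 95% of them lay between -0.59 and 0.33, and 404 of the 1346 were called, 78 higher and 326 lower, but only 3 of them by at least 2-fold. The receptor genes are dim, so this range was not measured for bright genes such as Rab6 or Rab14. All 15 Rab rises were outside that range, Rab27b only just, at 0.329 against a limit of 0.327. Of the 18 falls, 4 were outside it (Rab40b, Rab4b, Rab12 and Rab33b) and 14 inside. The range is wider on the side of falls, so a fall had to be larger than a rise to lie outside it. The share of all called genes outside the range was not computed, so these counts are not read as particular to Rab genes. Across 17 other fits, 9 rises and 8 falls passed in every fit that tested them. The rises were Rab2b, Rab11a, Rab8a, Rab23, Rab34, Rab18, Rab5b, Rab3d and Rab20. The falls were Rab40b, Rab12, Rab33b, Rab19, Rab17, Rab37, Rab33a and Rab42. Of these genes, Rab5b, Rab19, Rab37, Rab33a and Rab42 were tested in only 16 fits. The share of all genes that passed in every fit was not computed, so these counts are not read as particular to Rab genes.

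**Figure D1:**
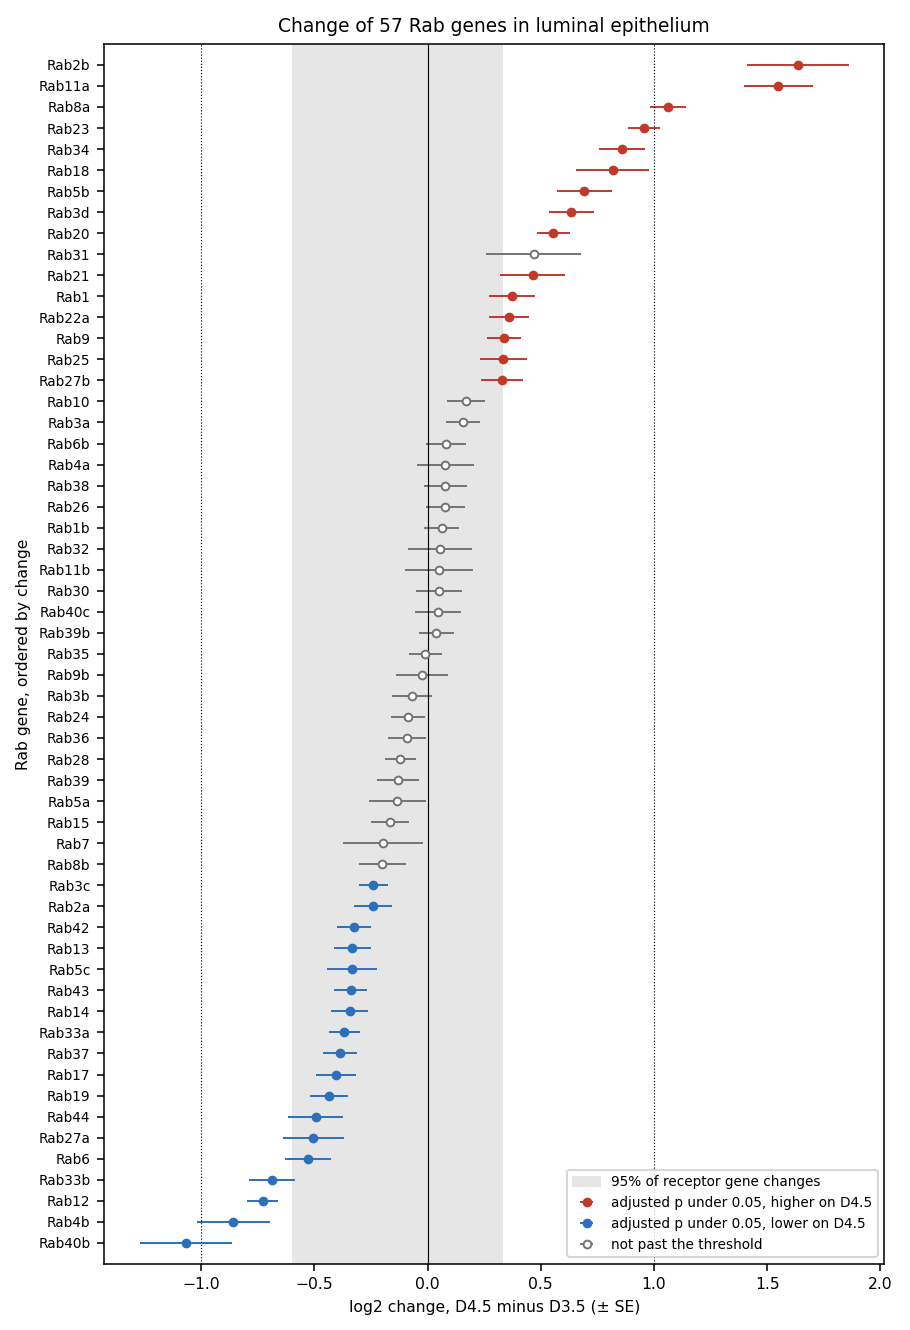
Change of each of the 57 Rab genes, D4.5 minus D3.5 in log2 units, ordered by size. Points are changes and bars are ± SE from limma (n = 3 arrays a day), red for the 15 rises, blue for the 18 falls and open grey for the 24 that did not pass. The grey band, -0.59 to 0.33, holds 95% of the changes of receptor genes and is wider on the side of falls. All red points lie beyond its right edge. Dotted lines mark 2-fold.

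Rab genes measured above the receptor level on at least 1 day numbered 49, of which 15 rose and 15 fell. Of all genes, 14691 were above it, 3530 of them higher and 3968 lower. The other 8 Rab genes, Rab30, Rab33a, Rab38, Rab39, Rab39b, Rab3b, Rab3c and Rab42, stood at the receptor level on both days. Of these, Rab33a, Rab3c and Rab42 fell, by 0.24 to 0.37. Rab27b rose out of the receptor level of each day, though its D4.5 mean of 6.44 was below the D3.5 receptor level of 6.56, and Rab13 and Rab37 fell into it.

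The windows around the annotated starts of the 4 genes past 2-fold are shown because their mRNAs changed most, 3 upward and 1 downward. Each runs from 250 bases before to 50 bases after the start (RefSeq, GRCm38.p6). Sequences read 5′ to 3′ on the strand of the gene. Capitals mark matches on either strand to the CCAAT box, whose name gives its letters, to a GC box, spelled GGGCGG, to an E-box, spelled CACGTG, to a steroid receptor half-site, spelled AGAACA, or to a TATA box, spelled TATAAA. No matches overlapped in these windows.
Rab11a, chr9:64737707-64738006, minus strand: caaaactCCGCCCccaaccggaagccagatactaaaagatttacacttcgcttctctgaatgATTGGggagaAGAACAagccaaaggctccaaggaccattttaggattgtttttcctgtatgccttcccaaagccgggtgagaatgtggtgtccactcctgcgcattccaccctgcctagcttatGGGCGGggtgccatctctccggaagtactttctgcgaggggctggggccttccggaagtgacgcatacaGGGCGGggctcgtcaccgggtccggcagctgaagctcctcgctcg
Rab2b, chr14:52279346-52279645, minus strand: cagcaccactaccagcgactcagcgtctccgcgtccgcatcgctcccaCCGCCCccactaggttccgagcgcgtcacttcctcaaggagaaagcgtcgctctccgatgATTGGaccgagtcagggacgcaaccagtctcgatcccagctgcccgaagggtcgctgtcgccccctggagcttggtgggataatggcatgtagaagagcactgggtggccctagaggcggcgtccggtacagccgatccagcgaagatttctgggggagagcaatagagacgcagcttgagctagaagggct
Rab8a, chr8:72160950-72161249, plus strand: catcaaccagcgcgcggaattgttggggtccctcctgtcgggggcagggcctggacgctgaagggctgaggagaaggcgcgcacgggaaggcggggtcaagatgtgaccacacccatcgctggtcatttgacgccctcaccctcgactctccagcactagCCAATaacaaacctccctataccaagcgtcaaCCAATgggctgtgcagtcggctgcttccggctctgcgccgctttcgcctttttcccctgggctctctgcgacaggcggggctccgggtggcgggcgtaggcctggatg
Rab40b, chr11:121388202-121388501, minus strand: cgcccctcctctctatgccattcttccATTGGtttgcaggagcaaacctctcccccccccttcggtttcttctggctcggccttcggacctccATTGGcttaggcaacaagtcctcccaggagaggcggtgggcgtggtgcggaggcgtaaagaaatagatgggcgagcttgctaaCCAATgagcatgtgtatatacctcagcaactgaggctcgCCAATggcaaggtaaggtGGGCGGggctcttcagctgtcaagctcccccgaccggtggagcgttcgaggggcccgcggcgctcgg

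All 4 windows held a CCAAT box, with 1 match in Rab11a, 1 in Rab2b, 2 in Rab8a and 4 in Rab40b. A GC box was found 3 times in Rab11a and once each in Rab2b and Rab40b, while these letters were not in the Rab8a window. The Rab11a window also had a steroid receptor half-site. Neither the E-box nor the TATA box letters occurred in the 4 windows. Of 32851 promoter windows of the same length, a CCAAT box was held by 37.4%, a GC box by 35.7%, a steroid receptor half-site by 19.0%, a TATA box by 13.6% and an E-box by 7.15%. Among the 58 windows of the 46 Rab genes in the RefSeq table, the shares were 44.8% for the CCAAT box, 69.0% for the GC box, 19.0% for the half-site, 6.9% for the TATA box and 10.3% for the E-box. The GC content of the printed windows was 56.3% for Rab11a, 62.0% for Rab2b, 64% for Rab8a and 60.7% for Rab40b. A match to such short letters describes the sequence and is not a known binding site.

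Among the 12 Rab genes grouped here under recycling and apical delivery, 4 rose (Rab11a, Rab8a, Rab20 and Rab25) and 3 fell (Rab17, Rab14 and Rab13). The group is broad: it also holds Rab10 of basolateral delivery and Rab20 of endocytic vesicles and phagosomes. Over all genes, 18.0% were called higher and 26.4% lower, the shares to set beside this and each role group below. Rab11a, which acts on recycling endosomes in delivery to the apical membrane, had levels of 10.27, 10.33 and 10.35 on the D4.5 arrays, against 8.40, 8.89 and 9.01 on the D3.5 arrays. Its deposited intensities were 1259, 1314 and 1302 on D4.5 and 306, 477 and 525 on D3.5. The days were far apart, and the change of 1.55 ± 0.15 (adjusted p = 0.000288) is 2.93-fold. Rab8a, which acts with Rab11a in delivery to the apical surface and to cilia, stood at 9.98, 9.95 and 9.90 on D4.5, against 8.75, 8.94 and 8.96 on D3.5. Its intensities were 1026, 1001 and 950.0 on D4.5, against 381, 492 and 508 on D3.5. The D4.5 arrays were close to each other and all above D3.5, a 2.09-fold rise (1.06 ± 0.08, adjusted p = 9.44e-05), which was 0.99 without D3.5 replicate 1.

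Rab25, the epithelial member of the Rab11 subfamily, had 10.47, 10.53 and 10.55 on D4.5, against 9.95, 10.29 and 10.29 on D3.5. It rose by 0.34 ± 0.10 (adjusted p = 0.0343). That call was lost when any of the D4.5 arrays was left out (0.36, 0.33 and 0.32 without replicates 1, 2 and 3) and on the deposited scale (0.40). Rab20, found on endocytic vesicles and phagosomes, rose 1.47-fold to 8.74 ± 0.07 on D4.5, against 8.19 ± 0.06 on D3.5.

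The third Rab11 subfamily gene, Rab11b, did not pass the test (8.82 ± 0.06 on D4.5, 8.77 ± 0.31 on D3.5, change 0.05 ± 0.15, adjusted p = 0.802). Its value rests on 2 rows whose order differed between the days. One had intensities of 103 to 122 on D4.5 and 778 to 1617 on D3.5, and the other had 1439 to 1462 on D4.5 and 132 to 160 on D3.5, so only their mean could be used. Taking the row with the higher mean would give a change of 3.28.

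Rab10, which serves basolateral delivery and glucose transporter vesicles, was also among the strongest Rab signals on both days, at 10.51, 10.49 and 10.63 on D4.5 and 10.49, 10.26 and 10.37 on D3.5. The days overlapped, and the change of 0.17 ± 0.08 did not pass (adjusted p = 0.138), although it did with median centring (0.68), on the deposited scale (0.25), with array weights (0.18) and without D3.5 replicate 1 (0.23). Rab14, of traffic between endosomes and the Golgi, stood at 9.97, 10.04 and 10.17 on D4.5, against 10.50, 10.35 and 10.35 on D3.5. Its fall (-0.34 ± 0.08, adjusted p = 0.0128) had no overlap of the days, but was 0.16 with median centring and missed the threshold without D4.5 replicate 2 (-0.33).

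Rab17, an epithelial Rab of apical recycling, fell to 6.86 ± 0.10 on D4.5, against 7.26 ± 0.11 on D3.5. Rab13, known from tight junction assembly, fell by 0.33 into the receptor level, at 6.32 ± 0.13 on D4.5 against 6.65 ± 0.04 on D3.5. That call was lost without D4.5 replicate 1 (-0.28) or replicate 2 (-0.31). Rab8b, Rab15 and Rab35 did not pass, with changes of -0.20, -0.17 and -0.01, and Rab8b passed only without D4.5 replicate 1 (-0.31).

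**Figure D2:**
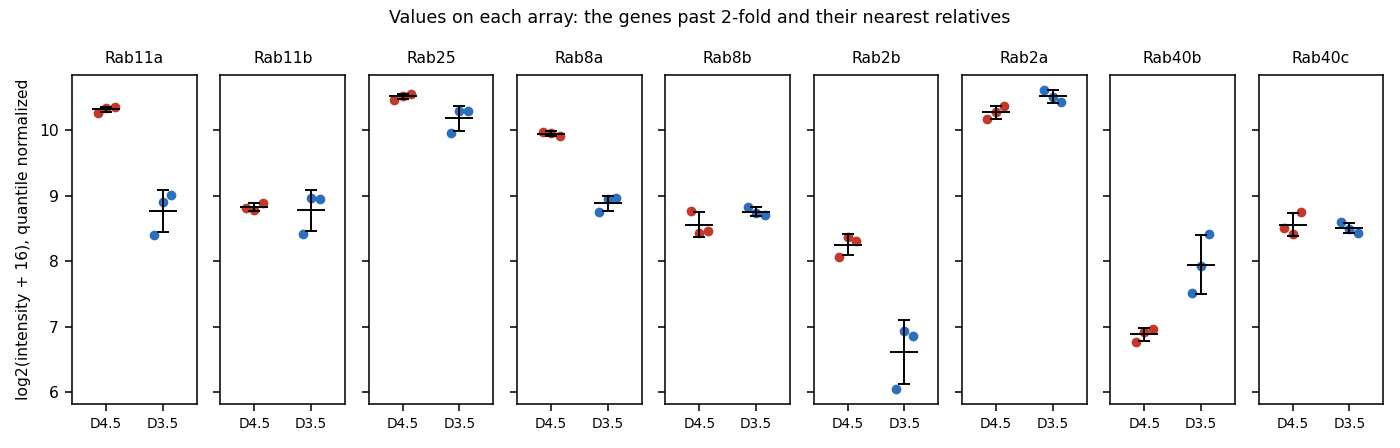
Levels of the 4 Rab genes past 2-fold and their nearest relatives on each array, as log2(intensity + 16) after quantile normalization, D4.5 left of D3.5 in each panel. Points are arrays, horizontal bars are means and whiskers ± SD (n = 3). Rab11a, Rab8a and Rab2b lay higher on every D4.5 array and Rab40b lower. Of the relatives, Rab25 also lay higher on every D4.5 array and Rab2a lower, while Rab11b, Rab8b and Rab40c overlapped between the days.

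Rab genes of the endoplasmic reticulum and the Golgi formed the largest group, with 3 rises (Rab2b, Rab18 and Rab1) and 6 falls (Rab33b, Rab6, Rab19, Rab33a, Rab43 and Rab2a) among 14. Rab2b had the largest fitted rise of the family in the fit described above, but not in every other fit. Rab11a passed it in several, among them median centring, the deposited scale and the fit without D3.5 replicate 1. Over 17 other fits the Rab2b change was 1.26 to 1.82 and that of Rab11a 1.36 to 1.99. With the row of the higher mean, Rab11b, whose rows changed order between the days, had 3.28. Rab2b had levels of 8.07, 8.37 and 8.31 on D4.5, against 6.05, 6.94 and 6.85 on D3.5. Its intensities were 249.8, 305 and 287 on D4.5 and 68.7, 120 and 116 on D3.5. Rab2 proteins act at the Golgi and in traffic between the Golgi and the endoplasmic reticulum. The 3.11-fold change (1.64 ± 0.23, adjusted p = 0.00127) had its widest spread in the low D3.5 replicate 1, and without that array it was 1.35.

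The close relative Rab2a stood at 10.17, 10.28 and 10.37 on D4.5, against 10.62, 10.50 and 10.43 on D3.5. Although called lower (-0.24 ± 0.08, adjusted p = 0.0490), it kept that call in 3 of 16 other fits. It was 0.28 with median centring, -0.15 and not past the threshold on the deposited scale, and 0.72 in the row with the higher mean, and it missed the threshold when any array other than D4.5 replicate 3 was left out (-0.19 to -0.28). Its 2 rows, like those of Rab11b, were in a different order on the days, with 836 to 892 and 1646 to 1963 on D4.5 and 1813 to 2005 and 902 to 1106 on D3.5.

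Rab1, which carries vesicles from the endoplasmic reticulum to the Golgi, had 10.61, 10.67 and 10.56 on D4.5, against 10.02, 10.34 and 10.34 on D3.5. It rose by 0.37 ± 0.10 (adjusted p = 0.0213), and lost the call without D4.5 replicate 1 (0.38) or replicate 2 (0.35). Its relative Rab1b did not pass (9.71 ± 0.05 on D4.5, 9.65 ± 0.10 on D3.5). Rab18, of the endoplasmic reticulum and lipid droplets, rose 1.76-fold to 7.49 ± 0.04 on D4.5, against 6.67 ± 0.35 on D3.5, where its arrays ranged between 6.30 and 6.99.

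Rab6, which moves vesicles back through the Golgi, stood at 10.24, 10.14 and 10.16 on D4.5, against 10.88, 10.52 and 10.72 on D3.5. It was among the strongest Rab signals on D3.5 and fell by 0.53 ± 0.10 (adjusted p = 0.00508), but by only 0.02 with median centring. Rab33b, a Golgi Rab that also takes part in autophagosome formation, fell 1.61-fold to 7.61 ± 0.11 on D4.5, against 8.29 ± 0.16 on D3.5. Rab19, Rab33a and Rab43 fell by 0.34 to 0.44, the last of them by 0.10 with median centring, where it missed the threshold. Rab6b, Rab30, Rab39 and Rab39b did not pass, with changes between -0.13 and 0.08. Of these, Rab39 passed without D3.5 replicate 1 (-0.21).

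Among the 8 Rab genes of early endosomes, 3 rose (Rab5b, Rab21 and Rab22a) and 2 fell (Rab4b and Rab5c). The Rab5 proteins drive fusion of early endosomes, and their 3 genes did not move together. Rab5b rose 1.62-fold to 9.62 ± 0.10 on D4.5, against 8.93 ± 0.23 on D3.5 (adjusted p = 0.00363). Rab5c was at 9.47 ± 0.02 on D4.5 and 9.81 ± 0.22 on D3.5 (-0.33 ± 0.11, adjusted p = 0.0439). That fall was 0.13 with median centring and missed the threshold without D3.5 replicate 2 (-0.28) or 3 (-0.26) and without D4.5 replicate 1 (-0.32), 2 (-0.35) or 3 (-0.33), and on the deposited scale (-0.29). Rab5a did not pass (9.08 ± 0.10 on D4.5, 9.22 ± 0.24 on D3.5).

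Rab4 proteins return receptors from early endosomes to the surface. Rab4b fell 1.81-fold to 8.28 ± 0.02 on D4.5, against 9.13 ± 0.35 on D3.5 (adjusted p = 0.00472), and with median centring changed by -0.47 and missed the threshold. Rab4a did not pass (7.41 ± 0.08 on D4.5, 7.33 ± 0.24 on D3.5). Rab21, which takes part in integrin uptake, rose to 9.94 ± 0.12 on D4.5, against 9.47 ± 0.29 on D3.5, but lost the call when D3.5 replicate 2 (0.46) or 3 (0.32) or any D4.5 array (0.51, 0.49 and 0.40 without replicates 1, 2 and 3) was left out. Rab22a, an endosomal Rab, rose to 8.51 ± 0.08 on D4.5, against 8.15 ± 0.13 on D3.5, and lost the call without D3.5 replicate 3 (0.31) or D4.5 replicate 1 (0.34).

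Rab31, a relative of Rab22a in traffic between the Golgi and endosomes, varied most among arrays of D4.5. It had 7.70, 7.42 and 7.01 on D4.5 and 7.16, 7.02 and 6.54 on D3.5, and did not pass (0.47 ± 0.21, adjusted p = 0.105), although it did without D4.5 replicate 3 (0.65). The mean level of 8 stromal markers was 8.75, 8.13 and 7.42 on the same D4.5 arrays and 8.15, 8.45 and 7.96 on the D3.5 arrays. Over the D4.5 arrays the stromal mean, Rab31 and also Rab34 (7.62, 7.46 and 7.37) were highest in replicate 1 and lowest in replicate 3. Other Rab genes, such as Rab8a and Rab18, had this order too. Over the D3.5 arrays the stromal mean, Rab31 and Rab34 (6.69, 6.74 and 6.46) were all lowest in replicate 3. Of the 57 Rab genes, 16 were highest in D4.5 replicate 1, 16 lowest in D4.5 replicate 3 and 17 lowest in D3.5 replicate 3. These orders are therefore not read as particular to Rab31 and Rab34. The means of endothelial (7.90, 7.31 and 6.49), leukocyte (7.44, 7.13 and 6.95) and smooth muscle markers (6.78, 6.73 and 6.41) also went down from D4.5 replicate 1 to 3. On D3.5 these means were at 6.95 to 7.62, 6.96 to 7.21 and 6.53 to 6.69. The summed level of the 8 stromal markers was 59.4 to 70.0 on D4.5 and 63.7 to 67.6 on D3.5, none of the 8 was called, and Lum was at the receptor level on both days. The part of any of these cells in the values of Rab31 and Rab34 was not tested.

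Among the 8 genes of regulated secretion, Rab3d and Rab27b rose and Rab27a, Rab37 and Rab3c fell. Rab3d, a Rab of secretory granules in exocrine cells, rose 1.55-fold to 8.77 ± 0.05 on D4.5, against 8.14 ± 0.18 on D3.5 (adjusted p = 0.00234). Of the other Rab3 genes, Rab3c fell by 0.24 within the receptor level, and Rab3a and Rab3b did not pass, with changes of 0.16 and -0.07. The call of Rab3c was lost without D3.5 replicate 2 or 3 (-0.25 each) and without D4.5 replicate 1 or 2 (-0.23 each), and with median centring (-0.22).

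The Rab27 proteins, which dock granules at the plasma membrane, had genes that were called in opposite directions, though the change of Rab27b was -0.17 on the deposited scale. Rab27a fell to 6.92 ± 0.07 on D4.5, against 7.43 ± 0.27 on D3.5 (adjusted p = 0.0195). Rab27b was at 6.44 ± 0.14 on D4.5 and 6.11 ± 0.09 on D3.5, a rise of 0.33 ± 0.09 (adjusted p = 0.0226). The Rab27a call was lost without D4.5 replicate 2 (-0.50) or 3 (-0.47), and the Rab27b call without D3.5 replicate 3 (0.34) or D4.5 replicate 3 (0.25) and with median centring (0.26). Rab37, a Rab of mast cell granules, fell into the receptor level, at 6.33 ± 0.10 on D4.5 and 6.72 ± 0.03 on D3.5. Rab26 did not pass, with a change of 0.08.

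Late endosomes and lysosomes had 7 Rab genes, of which Rab34 and Rab9 rose and Rab12 fell. Rab34, which positions lysosomes and takes part in cilium formation, was at 7.48 ± 0.13 on D4.5 and 6.63 ± 0.15 on D3.5, a 1.81-fold rise (adjusted p = 0.000690). Rab9, which returns receptors from late endosomes to the Golgi, rose to 8.32 ± 0.09 on D4.5, against 7.98 ± 0.04 on D3.5. On the deposited scale its change was 0.23 and missed the threshold. Rab12, which sends transferrin receptor to degradation, fell 1.66-fold to 8.48 ± 0.03 on D4.5, against 9.21 ± 0.08 on D3.5 (adjusted p = 0.000264).

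Rab7, the main Rab of late endosomes and lysosomes, was at 9.57 ± 0.05 on D4.5 and 9.77 ± 0.39 on D3.5 and did not pass. Without D3.5 replicate 1, its lowest value of that day at 9.35, it passed as lower (-0.41). Rab24, Rab36 and Rab9b did not pass, with changes between -0.09 and -0.02. The Rab genes of lysosome-related organelles such as melanosomes, Rab32 and Rab38, did not pass either (0.05 and 0.08).

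Rab23, which restrains Hedgehog signalling and is linked to primary cilia, rose 1.94-fold with little spread, to 7.56 ± 0.03 on D4.5 against 6.60 ± 0.08 on D3.5 (0.96 ± 0.07, adjusted p = 8.31e-05). Rab28, also found at cilia, did not pass (-0.12 ± 0.07).

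Rab40 proteins carry a SOCS box and join ubiquitin ligase complexes. Rab40b was the only Rab gene to fall by at least 2-fold, with levels of 6.76, 6.92 and 6.96 on D4.5, against 7.51, 7.92 and 8.41 on D3.5. Its intensities were 77.5, 90.6 and 91.1 on D4.5 and 179.8, 241 and 345 on D3.5. The days did not overlap, but the D3.5 arrays were wide apart. The change of -1.07 ± 0.20 (adjusted p = 0.00530, 2.09-fold lower) was -0.84 without D3.5 replicate 3 and so under 2-fold. Rab40c did not pass (8.56 ± 0.18 on D4.5, 8.51 ± 0.08 on D3.5). Of the genes given no role here, Rab44 fell by 0.49 and Rab42 by 0.32, the Rab42 signal within the receptor level. Without D4.5 replicate 2, Rab44 missed the threshold (-0.49).

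Ratios of related Rab genes within an array do not depend on a single scaling factor between arrays, apart from the added constant. Of 17 pairs of relatives, 12 had ratios on the deposited scale that did not overlap between the days, and 11 did so after quantile normalization too. The pairs were chosen with earlier results known, and the share of other gene pairs without overlap was not computed. Of all single genes after quantile normalization, 23.4% lay all above and 35.2% all below on D4.5. The count is therefore not read as particular to Rab genes. The ratio of Rab11a over Rab11b shifted by 1.65 in log2 units, being 1.59 ± 0.06 on D4.5 and -0.06 ± 0.07 on D3.5. Against Rab25, which rose itself, Rab11a still shifted by 1.16 (-0.20 ± 0.01 on D4.5 and -1.37 ± 0.06 on D3.5). Since each gene has its own probes, a ratio of 0 does not mean equal amounts of mRNA, and only the shift between days is read.

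Rab2b shifted by 1.51 over Rab2a, Rab8a by 1.32 over Rab8b, and Rab40b by -1.38 over Rab40c. Within the Rab5 genes, Rab5b shifted by 1.00 over Rab5c and by 0.81 over Rab5a. Further pairs without overlap were Rab3d over Rab3a (0.80), Rab9 over Rab9b (0.71), Rab1 over Rab1b (0.35), Rab4b over Rab4a (-0.69) and Rab27a over Rab27b (-0.68). With 3 arrays against 3, the exact two-sided permutation test reached its smallest p of 0.1 for each of these 12 pairs, 0.142 after adjustment over 17 pairs, so it cannot pass 0.05. The remaining 5 pairs (Rab33b over Rab33a, Rab6 over Rab6b, Rab22a over Rab31, Rab32 over Rab38 and Rab39 over Rab39b) had shifts between -0.18 and 0.22 and overlapped on the deposited scale. After quantile normalization 13 pairs did not overlap: Rab6 over Rab6b (-0.61) and Rab33b over Rab33a (-0.32) joined them, and Rab9 over Rab9b (0.36) overlapped. The shift of Rab3d over Rab3a was then 0.48.

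**Figure D3:**
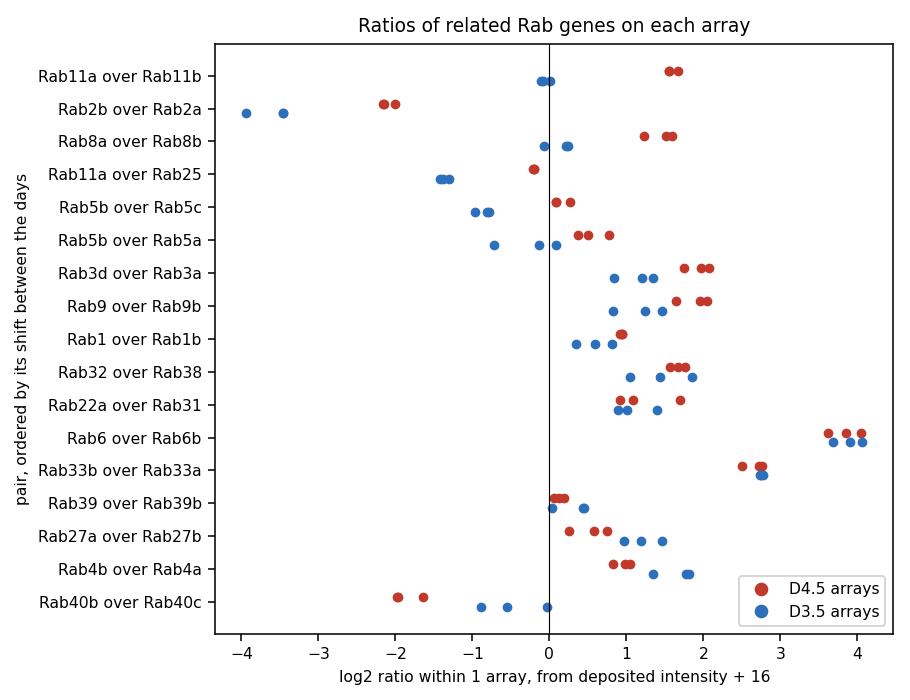
Ratio of 17 pairs of related Rab genes within each array, in log2 units from deposited intensity + 16, ordered by the shift between the days. Each point is an array, with D4.5 (red) drawn above D3.5 (blue). Rab11a over Rab11b lies near 1.59 on D4.5 and near -0.06 on D3.5, and 12 of the 17 pairs do not overlap.

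Of 224 genes that act on or with Rab proteins, 56 rose and 50 fell, where 18.0% of all genes were called higher and 26.4% lower, and their median change was 0.03. At least 2-fold rises were those of Sytl2, Oxr1, Rin2 and Chml (4 of 224, against 3.04% of all genes). At least 2-fold falls were those of Stx18, St5, Exoc4 and Stx12 (4 of 224, against 2.46% of all genes). The D3.5 means of Sytl2 and Chml were at the receptor level, and against it the Chml rise was at least 1.87-fold. With median centring 113 were called higher and 27 lower (28.0% and 19.6% of all genes), and on the deposited scale 34 and 89 (11.4% and 61.8%).

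Of 8 genes of prenylation and recycling, which attach the membrane anchor of Rab proteins and draw them off membranes, 5 rose and 1 fell (18.0% and 26.4% of all genes), with a median change of 0.36 against -0.07 for all genes. Both subunits of the Rab geranylgeranyl transferase rose, Rabggtb by 0.92 ± 0.07 (8.18 ± 0.08 on D4.5, 7.26 ± 0.05 on D3.5) and Rabggta by 0.62 ± 0.08 (8.71 ± 0.07 on D4.5, 8.10 ± 0.09 on D3.5). So did both Rab escort proteins, which present Rab proteins to the transferase: Chml by 1.06 ± 0.09 (7.46 ± 0.04 on D4.5, 6.40 ± 0.15 on D3.5) and Chm by 0.43 ± 0.07. Chml was at the receptor level on D3.5, and against that level its rise was at least 1.87-fold. Of the activators, inactivators and effectors named below, Dennd2c, Tbc1d30, Rufy3, Sytl2, Sytl3 and Myo5a were also at the receptor level on D3.5. Evi5l and Rab11fip4 were at it on D4.5, and Sytl5 on both days. Gdi2, which draws inactive Rab proteins off membranes, rose by 0.29 ± 0.06. Pde6d, a carrier of prenylated proteins, fell by 0.57 ± 0.08, but by 0.14 with median centring, where it missed the threshold.

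Of 43 activators 9 rose and 10 fell (18.0% and 26.4% of all genes), with a median change of 0.09. Rin2, an exchange factor of Rab5, rose 2.79-fold to 10.56 ± 0.05 on D4.5, against 9.08 ± 0.28 on D3.5 (adjusted p = 0.000212). Rab3ip (Rabin8), which activates Rab8 and binds Rab11, rose by 0.54 ± 0.10, and Dennd2c by 0.57 ± 0.12, with Dennd2c missing the threshold on the deposited scale (0.16). St5, now named Denn2b, an exchange factor of the DENN family, fell 3.56-fold to 7.21 ± 0.14 on D4.5, against 9.04 ± 0.05 on D3.5 (adjusted p = 1.60e-05). Mon1a, part of the activator of Rab7, fell by 0.77 ± 0.07, and Hps4, part of the activator of Rab32 and Rab38, by 0.73 ± 0.07.

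Of 37 GTPase-activating proteins 11 rose and 6 fell (18.0% and 26.4% of all genes), with a median change of 0.03. None changed by 2-fold, where 3.04% of all genes rose and 2.46% fell by at least 2-fold. Tbc1d1, which acts on Rab proteins of glucose transporter vesicles, rose by 0.85 ± 0.09, Tbc1d8 by 0.81 ± 0.07 and Tbc1d30, known to act on Rab8, by 0.66 ± 0.07. Tbc1d12 fell by 0.76 ± 0.09, Rab3gap2, a subunit of the GTPase-activating complex of Rab3, by 0.75 ± 0.08 and Evi5l by 0.39 ± 0.06.

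Of 64 effectors 16 rose and 20 fell (18.0% and 26.4% of all genes), with a median change of 0.01. The largest fitted change was that of Sytl2, which encodes a synaptotagmin-like protein that binds Rab27 and docks vesicles at the apical membrane. Its levels were 9.14, 8.89 and 8.52 on D4.5, against 5.72, 5.94 and 5.77 on D3.5, where it was at the receptor level. The fitted change was 3.04 ± 0.15 (adjusted p = 1.97e-05), and against the D3.5 receptor level the rise was at least 4.91-fold. Of its relatives Sytl3 rose by 0.65 ± 0.14 and Sytl1 fell by 0.25 ± 0.08, while Sytl4 and Sytl5 did not pass (-0.30 and -0.39). Oxr1, an oxidation resistance gene whose place among effectors is less certain, rose by 1.52 ± 0.12, and Rufy3 by 0.61 ± 0.07. Mical3, an effector of Rab8, fell by 0.94 ± 0.07, and Myrip, which links Rab27a to myosins, by 0.87 ± 0.08.

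The Rab11 family interacting proteins, which bind active Rab11, did not all move the same way. Rab11fip2 fell by 0.65 ± 0.09 (7.97 ± 0.07 on D4.5, 8.63 ± 0.12 on D3.5) and Rab11fip4 by 0.46 ± 0.10. Rab11fip1 rose by 0.89 ± 0.11 (mean 10.43 on D4.5, 9.54 on D3.5) and Rab11fip5 by 0.56 ± 0.09, while Rab11fip3 did not pass (0.20 ± 0.14). Myosin V motors, which Rab11 recruits, were looked at after their values were seen: Myo5b fell by 0.68 ± 0.10 (mean 9.33 on D4.5, 10.01 on D3.5), and Myo5a and Myo5c rose by 0.66 ± 0.14 and 0.59 ± 0.11.

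Of 43 SNARE genes and their partners 8 rose and 7 fell (18.0% and 26.4% of all genes), with a median change of 0.01. Stx18, a syntaxin of the endoplasmic reticulum, had 8.79, 8.52 and 8.38 on D4.5, against 11.37, 11.42 and 11.30 on D3.5 (2.80 ± 0.11 lower in log2 units, 6.95-fold, adjusted p = 9.51e-06). Stx12, of recycling endosomes, fell by 1.10 ± 0.10 and Vamp2 by 0.66 ± 0.07, the Vamp2 fall being 0.18 and past no threshold with median centring. Stx3, the syntaxin of the apical membrane, rose by 0.45 ± 0.06, Stx7, of late endosomes, by 0.62 ± 0.06 and Stx11 by 0.79 ± 0.08.

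Of 29 genes of tethering complexes 7 rose and 6 fell (18.0% and 26.4% of all genes), with a median change of 0.05. Exoc4, a subunit of the exocyst that tethers vesicles at the plasma membrane, fell 2.41-fold to 7.96 ± 0.04 on D4.5, against 9.23 ± 0.07 on D3.5 (adjusted p = 2.59e-05). The exocyst subunit that binds Rab11, encoded by Exoc6 and Exoc6b and looked at after its values were seen, was higher, by 0.61 ± 0.12 and 0.40 ± 0.13. Vps54, of the complex that receives endosomal vesicles at the Golgi, fell by 0.88 ± 0.08 and the Golgi tether subunit Cog1 by 0.33 ± 0.07, which was 0.07 higher with median centring. Cog6 rose by 0.43 ± 0.07, and the endosomal tether subunits Vps16 and Vps8 each by 0.34 ± 0.06, Vps8 missing the threshold on the deposited scale (0.08).

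**Figure D4:**
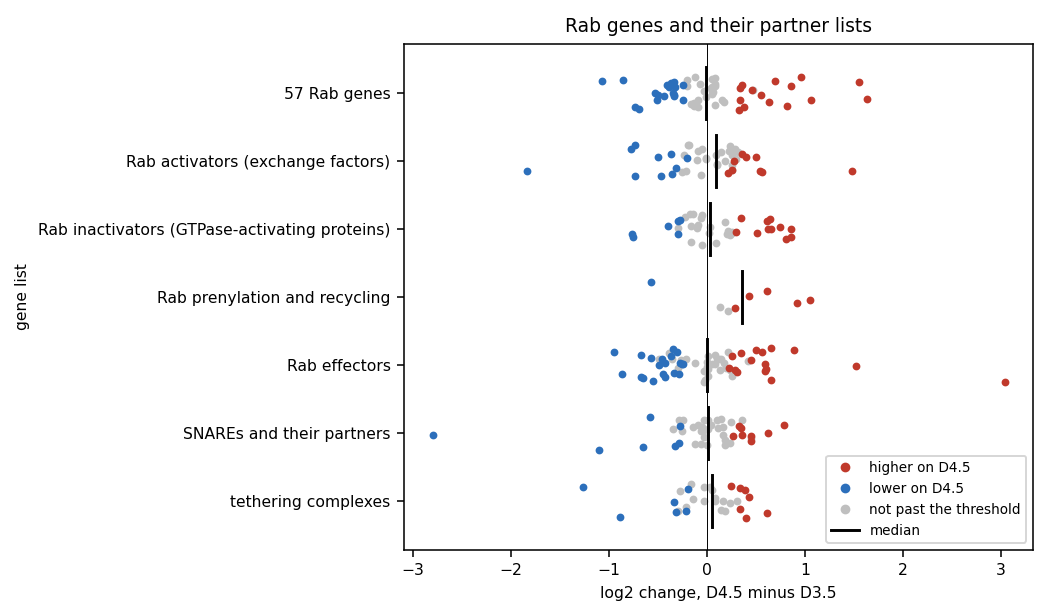
Changes of the 57 Rab genes and of 6 lists of genes that act with them, D4.5 minus D3.5 in log2 units. Each point is a gene, red where it rose, blue where it fell and grey where it did not pass, with vertical spread only to separate points, and black bars are medians. The prenylation and recycling list has the highest median (0.36), and Sytl2 (fitted change 3.04) and Stx18 (-2.80) lie farthest out.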

How the data were processed

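Transcripts of mouse uterine luminal epithelium were measured on 6 single-colour Affymetrix arrays, 3 of D4.5 and 3 of D3.5. The authors deposited linear intensity values in a table of the series; which software summarised them, with which annotation and genome build, is not given in the sources used here. A further deposited table of the same values was not used. Of 35556 rows, 25070 held 1 symbol, which gave 21740 genes; the other rows were left out. Identifiers were not used, since on all 60 Rab rows the identifier is 1 above that of the row before. The 57 Rab genes had 60 rows, and Rab11b, Rab2a and Rab5b had 2 each, which were averaged because their order differed between the days for Rab11b and Rab2a. A gene with 1 row was taken to be named correctly by its symbol on both days, an assumption that could not be checked gene by gene; across genes, arrays of different days correlated with r = 0.916 to 0.942. Of the Rab symbols, 55 are current in RefSeq (GRCm38.p6), 1 (Rab6) is a synonym and 1 (Rab1) had no unique match.

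Values were log2(intensity + 16), quantile normalized over all rows, with no filter on dim rows. The two-sided test was that of limma 3.58.1 (lmFit, eBayes; R 4.3.3) for D4.5 minus D3.5 over all 21740 genes, called at a Benjamini-Hochberg adjusted p under 0.05 and, more strictly, with at least 2-fold change; the fit was tested on simulated data. Ratios of related genes were compared with an exact permutation test in scipy 1.17.1 over 17 pairs. Tables were read with pandas 2.3.3 (Python 3.11.15) and figures drawn with matplotlib 3.10.9. Precision is limited by the number of arrays. Between D3.5 arrays 1 to 3 of the 60 Rab rows held exactly equal values, and 0 between any other arrays.

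The members, roles and lists were chosen with earlier results of these data known. Every Rab gene is accounted for; those past 2-fold and the 5 with the highest mean on each day get the value on every array, and the partner lists are named by the up to 3 smallest p-values in each direction, with relatives beside them. Alternatives were median centring, the deposited scale, constants of 1 and 64, array weights, eBayes with trend and robust, only genes above the median level, only genes with 1 row, the row with the highest mean, leaving out each array, and a block for replicate number; the highest row on each array was added after seeing the data.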

Additional observations from a re-analysis of the deposited data

How the results depend on the processing

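Of the settings tried, the scaling between the days moved the counts most. With median centring 11 Rab genes were called lower, 5 were called and at least 2-fold higher and 0 at least 2-fold lower, and of the partner genes 113 were higher and 27 lower. On the deposited scale 29 Rab genes were lower, 34 partner genes higher and 89 lower, and 15914 of all genes were called, against 9651. Among genes above the median level, where only 40 Rab genes were tested, 11 were lower, and 5771 of the 10870 genes tested were called. The count of Rab genes at least 2-fold lower was 0 with a constant of 64 and 2 with array weights. Genes that changed sign and were called in at least 1 of the 2 fits were, with median centring, Rab14 (0.16), Rab24 (0.24), Rab2a (0.28), Rab35 (0.41), Rab5a (0.33), Rab5c (0.13) and Cog1 (0.074), on the deposited scale Rab26 (-0.39), Rab27b (-0.17), Rab30 (-0.45), Rab38 (-0.41), Rab39b (-0.46), Rab3a (-0.23) and Rab6b (-0.39), and in the row with the highest mean Rab2a (0.72). A further 5 genes with median centring and 3 on the deposited scale changed sign but were called in neither fit. The cause was not tested.

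Leaving out each array in turn gave 11 to 16 Rab genes higher, 11 to 19 lower, 2 to 3 at least 2-fold higher and 0 to 2 at least 2-fold lower, 43 to 62 partner genes higher and 32 to 46 lower, and 6540 to 9813 of all genes called. Without D4.5 replicate 2, 11 Rab and 32 partner genes were lower. The number at least 2-fold lower was 2 without D3.5 replicate 1 and 0 without D3.5 replicate 3. With the replicate number as a block, 15 Rab genes were higher and 16 lower, 3 and 1 of them by at least 2-fold, 50 partner genes were higher and 43 lower, and 8283 genes were called in all. Deviations of arrays with the same number correlated with -0.06, 0.06 and 0.10 between the days, and D4.5 replicate 1 correlated best with D3.5 replicate 2 (0.16), so the numbers were not taken to pair the arrays.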
